A study of Caenorhabditis elegans with 6 samples.

Results

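Protein phosphatase 1 (PP1) is a serine/threonine phosphatase whose catalytic subunits are directed to their substrates by many regulatory proteins. *C. elegans* has broadly expressed catalytic subunits, *gsp-1* and *gsp-2*, which act in dividing germ cells and embryos, and a pair of close copies, *gsp-3* and *gsp-4*, which are made in the germ line during spermatogenesis. GSP-3 and GSP-4 are needed for chromosome segregation in sperm meiosis and for the crawling of spermatozoa on major sperm protein fibres. GIPC proteins are adaptors with a PDZ domain, and in vertebrates they link membrane proteins to the motor myosin VI. *gipc-1* and *gipc-2* are the worm genes of that name. Hermaphrodites make sperm at the end of larval life, store them, and make oocytes from then on.

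These 6 genes were taken by their symbols from the 46756 genes of the deposited count table, and they were chosen from the difference between the groups described here, which was already known for them. Their differences between the groups are therefore given as a description, and no call on them is used as support. All 6 had enough counts to be fitted, as did 15883 genes in all. *gsp-3*, *gsp-4*, *gipc-1* and *gipc-2* had enough only through the low exopher libraries. RNA came from whole hermaphrodites of the strain ACH93 on adulthood day 2, grown at 20 °C on *E. coli* OP50. ACH93 has the N2 wild-type background and carries integrated *myo-3* promoter transgenes, with an *unc-119* rescue, that label muscle exophers red and muscle mitochondria green. Exophers are large vesicles shed by body wall muscle. The low exopher group (n = 3 libraries) held worms with fewer than 2 exophers and the high exopher group (n = 3) worms with more than 20, with no other difference in genotype or treatment named. The worms were sorted by this count, not treated, and the sources used here do not give the number of worms in a library. Poly(A)-selected libraries held between 60511481 and 72909583 counts each.

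*gsp-1* and *gsp-2* were abundant and alike in all 6 libraries, whereas *gsp-3*, *gsp-4*, *gipc-1* and *gipc-2* were counted 70 to 1044 times in each low exopher library and at most 11 times in any high exopher library. In these 4 genes every high exopher library lay below every low exopher library, as in 9.96% of all genes tested. The fit across all genes called the same 4 lower in the high exopher group and neither *gsp-1* nor *gsp-2*, where 2.78% of all genes tested were called lower. Because the genes were chosen on this difference, these counts describe the choice and nothing is read from them. A call needed an adjusted p below 0.05, by the quasi-likelihood test of edgeR, and an absolute log2 fold change above 1. Log2 fold changes are high over low throughout, and normalized counts are counts scaled to a common library size. In RNA from whole worms, fewer cells of a type and less RNA per cell cannot be told apart.

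**Figure D1:**
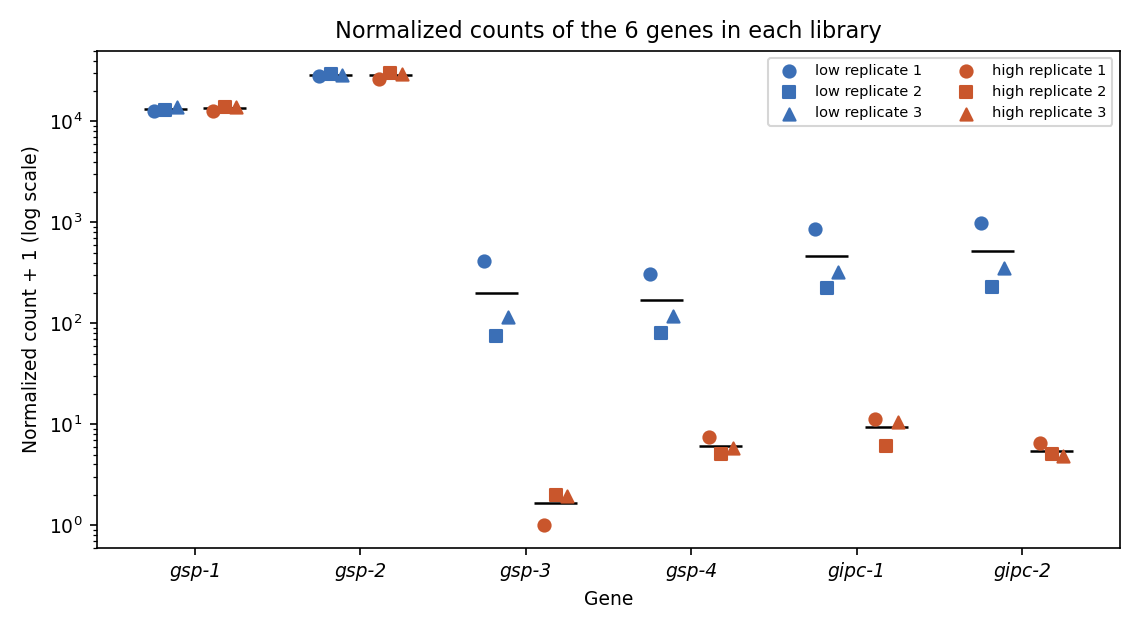
Normalized counts plus 1 of the 6 genes on a log axis, for the 3 low exopher (blue) and 3 high exopher (orange) libraries, with bars at the group means. The symbols of *gsp-1* and *gsp-2* overlap between the groups, while those of the other 4 genes do not, and low exopher replicate 1 is the highest point in each of these 4.

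Of the general catalytic subunits, *gsp-1* (WBGene00001747) lies on the forward strand of chromosome V from 10682422 to 10686537 in WBcel235 and has 1 transcript with 5 exons. It was counted 13654, 12467 and 12195 times in low exopher replicates 1, 2 and 3 and 13606, 13591 and 14530 times in high exopher replicates 1, 2 and 3. After normalization its mean count was 13273 ± 659 (SD, n = 3) in low exopher worms and 13458 ± 732 in high exopher worms, and the groups overlapped. The log2 fold change was 0.020 with a standard error of 0.073.

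*gsp-2* (WBGene00001748) lies on the forward strand of chromosome III from 7336587 to 7338765 and has 7 exons. The low exopher libraries held 30234, 28067 and 25276 *gsp-2* counts, and the high exopher libraries 28473, 29607 and 30402. The normalized mean was 28890 ± 576 against 28555 ± 1873 (SD, n = 3 each), with the lowest and the highest values both in the high exopher group. The log2 fold change was -0.017 with a standard error of 0.078. Neither general subunit differed between the groups by as much as its replicates differed from each other. Its sign changed with the scaling for *gsp-2*, to 0.034 when only library totals were used.

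Of the sperm catalytic subunits, *gsp-3* (WBGene00021113) lies on the reverse strand of chromosome I from 4709259 to 4710712, and *gsp-4* (WBGene00020187) on the same strand from 3838237 to 3839673. Each has 4 separate blocks of exons. *gsp-3* was counted 443, 70 and 99 times in low exopher replicates 1, 2 and 3 and 0, 1 and 1 times in the high exopher replicates. A count of 0 in a single high exopher library allows up to 3 counts. All 3 low exopher libraries were far above this, and replicate 1 stood above the other low exopher libraries. Summed over each group and scaled to library size, the 612 counts against 2 made a ratio of low over high of 328, with an exact 95% interval from 90.4 to 2714. This interval, like the others of its kind here, covers counting error only and not the spread between worms. The log2 fold change was -8.03 with a standard error of 1.05, a fitted value that depends on the prior count at such low counts.

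For *gsp-4*, low exopher replicates 1, 2 and 3 had 327, 75 and 103 counts, while high exopher replicates had 7, 4 and 5. It was therefore seen in every library, unlike *gsp-3*. The normalized mean was 167 ± 121 against 5.12 ± 1.25 (SD, n = 3 each), and the log2 fold change -4.99 with a standard error of 0.637. The ratio of the summed counts was 33.8, with an exact 95% counting interval from 20.6 to 59.6. Reads were counted only where they mapped to 1 place, and the close similarity of *gsp-3* and *gsp-4* leaves the split between these genes uncertain.

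*gipc-1* (WBGene00016440), on the forward strand of chromosome III from 4870778 to 4872261, had 912, 214 and 280 counts in low exopher worms and 11, 5 and 10 in high exopher worms. Its lowest library in the low exopher group was 21.9-fold above its highest in the high exopher group. After normalization this was a mean of 466 ± 338 against 8.30 ± 2.82 (SD, n = 3 each). The log2 fold change was -5.78 with a standard error of 0.636, and the ratio of the summed counts was 58.0 with a counting interval from 39.4 to 89.

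*gipc-2* (WBGene00009681), on the reverse strand of chromosome IV from 10026413 to 10027666, had the most counts of the 4 in low exopher worms, with 1044, 219 and 305, and 6, 4 and 4 in high exopher worms. The nearest libraries of the groups differed 41.2-fold. The normalized mean was 518 ± 400.5 against 4.49 ± 0.939 (SD, n = 3 each), and the log2 fold change was -6.81 ± 0.706 (standard error). The ratio of the summed counts was 120.0, with a counting interval from 71.3 to 220.1. Both *gipc* genes have 3 exons, and no exon of any of the 6 genes overlaps that of another annotated gene on either strand.

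The level of each gene was also set per kilobase of its exons, so that genes could be compared within a group. In the low exopher group *gsp-2* had 17899 ± 357 normalized counts per kilobase (SD, n = 3) and *gsp-1* 7436 ± 369. They were followed at much lower levels by *gipc-2* with 448 ± 346, *gipc-1* with 337 ± 244, *gsp-3* with 180 ± 167 and *gsp-4* with 145 ± 105. The means of these 4 genes differed by less than the SD of *gipc-2*. Within each low exopher library, however, *gipc-2* was above *gipc-1*, and *gipc-1* above both *gsp-3* and *gsp-4*. Reads that map to several places were dropped, which can lower *gsp-3* and *gsp-4* in this order and was not tested. In the high exopher group *gsp-2* had 17692 ± 1160 and *gsp-1* 7540 ± 410 normalized counts per kilobase. *gipc-1* came next at 6.0 ± 2.04, then *gsp-4* at 4.42 ± 1.08 and *gipc-2* at 3.88 ± 0.812, and *gsp-3* was last at 0.590 ± 0.512. *gipc-1* was the highest of these 4 in each high exopher library, while *gsp-4* and *gipc-2* differed by less than the SD of either. In order from the lowest log2 fold change of all 15883 genes, *gsp-3* stood at place 51, *gipc-2* at 102, *gipc-1* at 171 and *gsp-4* at 219.

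The sperm catalytic subunits made up a small part of all *gsp* counts. Their share was 1.72%, 0.356% and 0.536% in low exopher replicates 1, 2 and 3, and 0.0166%, 0.0116% and 0.0134% in high exopher replicates 1, 2 and 3. The exact 95% binomial intervals reached down to 0.301% in the low and up to 0.0343% in the high exopher group. Per exon base the shares were between 0.521% and 2.51% in the low and between 0.0168% and 0.0239% in the high exopher libraries. The counts of the *gipc* pair were also set against those of the *gsp-3* and *gsp-4* pair. For each *gsp-3* or *gsp-4* count, low exopher replicates 1, 2 and 3 held 2.54, 2.99 and 2.90 *gipc* counts, and high exopher replicates 1, 2 and 3 held 2.43, 1.80 and 2.33. The last 3 ratios were below the others but rested on 5 to 7 *gsp-3* and *gsp-4* counts each. Both pairs were chosen on the same difference between the groups, so the likeness of the ratios is a description. All of these ratios can be raised by the loss of *gsp-3* and *gsp-4* reads that map to several places.

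Within each pair the paralogs were compared by their share of the pair's counts in every library. In low exopher worms *gsp-1* took 31.1%, 30.8% and 32.5% of the *gsp-1* and *gsp-2* counts, and in high exopher worms 32.3%, 31.5% and 32.3%, so that the balance of the general subunits was nearly the same in all 6. *gsp-3* took 57.5%, 48.3% and 49% of its pair in the low exopher libraries. In the high exopher libraries it took 0 of 7 counts, 1 of 5 and 1 of 6. Over each group this came to 54.8% (exact 95% binomial interval 51.8% to 57.7%) against 11.1% (1.38% to 34.7%). The intervals cover counting error only. Low exopher replicate 1 held 770 of the 1117 counts behind the first share, and the shares in replicates 2 and 3 were below its interval.

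*gipc-2* took 53.4%, 50.6% and 52.1% of its pair in the low exopher libraries, a little over the share of *gipc-1* in each. In the high exopher libraries it took 6 of 17, 4 of 9 and 4 of 14 counts, so that *gipc-1* was the larger in each. Over each group the shares were 52.7% (50.9% to 54.5%) and 35.0% (20.6% to 51.7%). The high exopher shares of *gsp-3* and *gipc-2* rest on 18 and 40 counts in all.

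**Figure D2:**
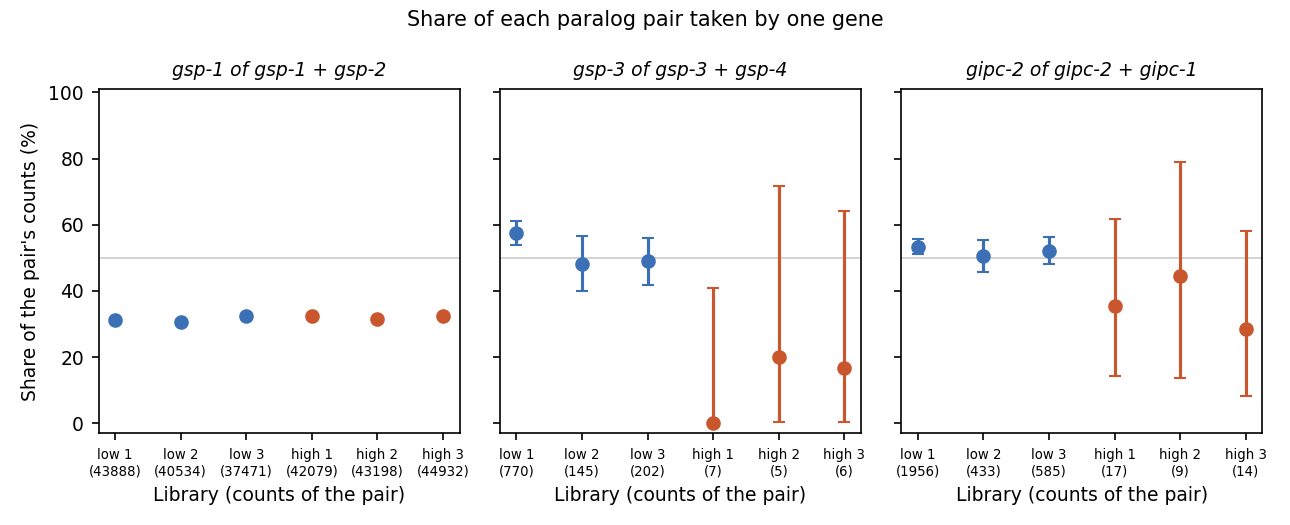
Share of the counts of each pair that belongs to *gsp-1*, *gsp-3* or *gipc-2*, in percent, for the 3 low exopher (blue) and 3 high exopher (orange) libraries, with exact 95% binomial intervals and the pair's counts in brackets. A grey line marks equal shares. The *gsp-1* share is between 30.8% and 32.5% in every library, while the high exopher shares of the other pairs rest on 5 to 17 counts each and have wide intervals.

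*gsp-3*, *gsp-4*, *gipc-1* and *gipc-2* also differed among the low exopher libraries. Replicate 1 was above replicate 2 by 5.65-fold for *gsp-3*, 3.89-fold for *gsp-4*, 3.81-fold for *gipc-1* and 4.26-fold for *gipc-2* in normalized counts. Replicate 3 lay between them, 1.44-fold to 1.55-fold above replicate 2 for all 4. *gsp-1* and *gsp-2* differed by at most 1.10-fold among these libraries. Across 15860 genes with a count in each low exopher library the median ratio of replicate 1 to replicate 2 was 1.00, and 2.49% of the genes had a ratio of 4 or more. Without low exopher replicate 1 the log2 fold changes were smaller in size, at -6.94 for *gsp-3*, -4.24 for *gsp-4*, -5.03 for *gipc-1* and -5.99 for *gipc-2*. With all 6 libraries they were -8.03, -4.99, -5.78 and -6.81. All 4 genes were called lower without low exopher replicate 1, which their choice favours. Without high exopher replicate 1 none of the 6 *gsp* and *gipc* genes was called, in a fit that called 0 genes lower in all although 1450 were lower at an unadjusted p below 0.05. Without high exopher replicate 3 only *gipc-2* was called, among 17 lower calls in all. The log2 fold changes of the 4 genes without 1 or the other of these libraries were between -8.36 and -4.95.

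**Figure D3:**
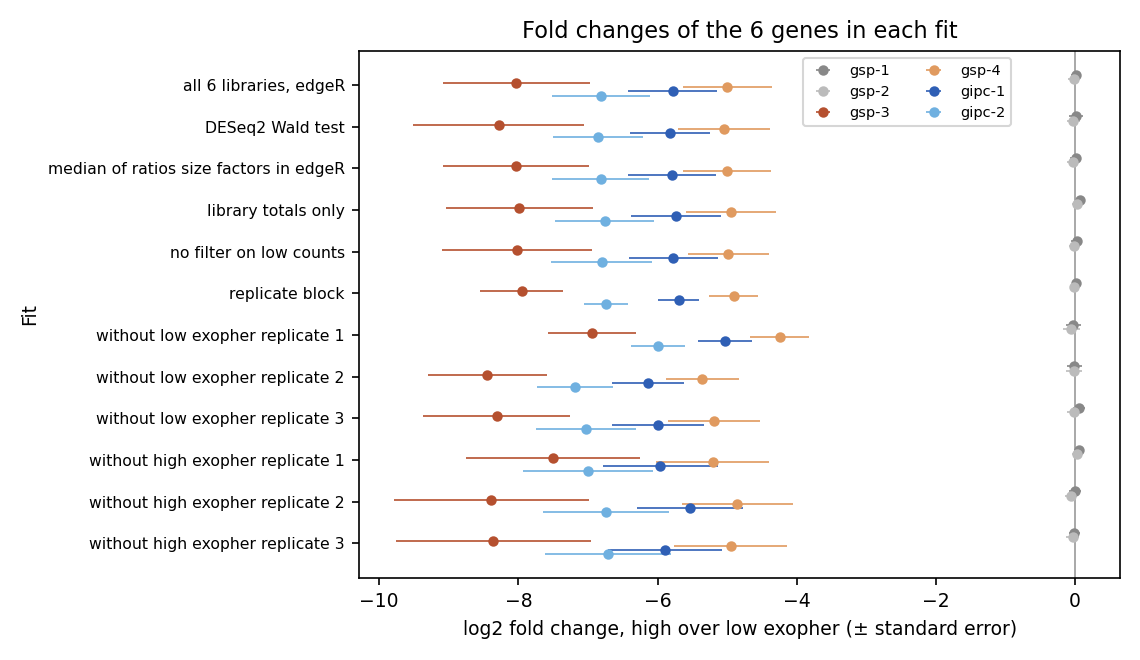
Log2 fold change, high over low exopher, of the 6 genes with its standard error in the fit of all 6 libraries, in 5 fits with another test, scaling, filter or a replicate block, and in 6 fits with 1 library left out. The 4 genes lower in high exopher worms lie between -8.44 and -4.24 in every fit shown, and *gsp-1* and *gsp-2* lie near 0.

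The next question was whether other phosphatases of the same superfamily differed. A list of 9 genes was taken by symbol, *let-92* (the catalytic subunit of PP2A), *tax-6* (calcineurin A) and the *pph* genes. Of the 8 that could be tested, none was called in either direction by edgeR or by DESeq2. None of the 8 had an unadjusted p below 0.05. In edgeR 2.78% of all genes tested were called lower and 2.95% higher, and 2708 of 15883 had an unadjusted p below 0.05. A list of 8 is too short for a lack of calls to set it apart from all genes. The median log2 fold change of the 8 was -0.05, where that of all genes tested was -0.01. The lowest values were those of *pph-1* (-0.24, standard error 0.270), *tax-6* (-0.18, standard error 0.118) and *pph-6* (-0.08, standard error 0.064), and those above 0 were *pph-4.1* (0.09, standard error 0.063) and *let-92* (0.02, standard error 0.074).

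The ninth gene, *pph-2*, had too few counts to pass the filter on low counts. It was counted 57, 9 and 8 times in the low exopher libraries and not at all in the high ones. With 3 counts over the high exopher group as the floor, the ratio of summed *pph-2* counts, low over high, had a lower bound of 26.4-fold. This bound takes the low exopher sum as exact and leaves out the spread between libraries. Low exopher replicate 1 held most of the *pph-2* counts, and without it the bound was 9.63-fold. Without high exopher replicate 1 it was 17.3-fold. When genes of low counts were kept, *pph-2* had an adjusted p of 0.0198 from edgeR, in a fit that called 670 of 25601 genes lower. *pph-2* entered that fit only through the low exopher libraries, and its list was added after the data had been seen. The adjusted p is therefore given as a description.

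Regulatory proteins of PP1 were compared next, with a list of 8 genes. *mel-11*, the targeting subunit of myosin phosphatase, stood at -0.01 on the log2 scale (standard error 0.077), *sds-22* at 0.02 (0.065) and the inhibitor *szy-2* at 0.01 (0.069). The meiotic chromosome protein *lab-1*, the kinetochore protein *knl-1*, the Ras pathway scaffold *soc-2* and the nuclear pore protein *mel-28* were between -0.05 and 0.04. The exception was *nab-1*, which encodes neurabin, a scaffold at synapses that binds actin and PP1. Low exopher worms had 1187, 1350 and 858 *nab-1* counts and high exopher worms 3057, 2380 and 2611. The normalized mean was 1169 ± 219.6 against 2587 ± 224 (SD, n = 3 each). *nab-1* rose by 1.15 on the log2 scale (adjusted p = 0.0114 from edgeR, standard error 0.151), as the only one of the 8 called, where 2.95% of all genes were called higher. Without high exopher replicate 1 or 3 it was not called, with adjusted p values of 0.0504 and 0.0524 from edgeR.

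Sperm genes that act beside the PP1 subunits were described with a list of 6. The GSK3-like kinases *gskl-1* and *gskl-2* and the casein kinase 1-like *spe-6* act in sperm development or motility, *smz-1* and *smz-2* encode PDZ domain proteins of sperm, and *htas-1* a sperm histone H2A variant. Of these, 3 were called lower, *gskl-2*, *smz-2* and *htas-1*, where 2.78% of all genes tested were called lower. All 6 log2 fold changes were below 0 with a median of -2.23. Since these genes were listed with earlier results of the same libraries known, their direction is not independent evidence. *gskl-2* had 211, 70 and 60 counts against 16, 20 and 19, and fell by 2.67 on the log2 scale (standard error 0.491, adjusted p = 0.0218 from edgeR). Its paralog *gskl-1* had 67, 26 and 35 counts against 45, 37 and 40, so that the groups overlapped, and its log2 fold change was -0.15 ± 0.367 (standard error).

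*smz-2* had 237, 44 and 72 counts against 15, 11 and 11, and fell by 3.29 on the log2 scale (standard error 0.619, adjusted p = 0.0227 from edgeR). *smz-1* had 436, 130 and 167 counts against 105, 47 and 70. Every high exopher library of *smz-1* lay below every low one, as in 9.96% of all genes tested. The log2 fold change of *smz-1* was -1.79 (standard error 0.461). Its adjusted p from edgeR was 0.0646, or 0.00349 when the replicate number entered the fit as a block. *htas-1* had 71, 18 and 18 counts against 1, 0 and 0, and the ratio of its summed counts was 114.7 with an exact 95% counting interval from 20.1 to 4572. *htas-1* passed the filter on low counts only through the low exopher libraries, so its call is given as a description. The log2 fold change of *spe-6*, which is also among the sperm markers described here, was -0.39 ± 0.189 (standard error). With high exopher replicate 1, 2 or 3 left out edgeR called none of the 6, although 5, 4 and 4 of them were lower at an unadjusted p below 0.05. Over all genes 1450, 1496 and 1098 were lower at that level in these fits.

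The myosin VI genes *spe-15*, which acts in spermatogenesis, and *hum-8* had log2 fold changes of -0.51 (standard error 0.201) and -0.40 (standard error 0.170). They were not called by edgeR or DESeq2. Both had an unadjusted p below 0.05 in edgeR, as did 2708 of all 15883 genes tested.

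**Figure D4:**
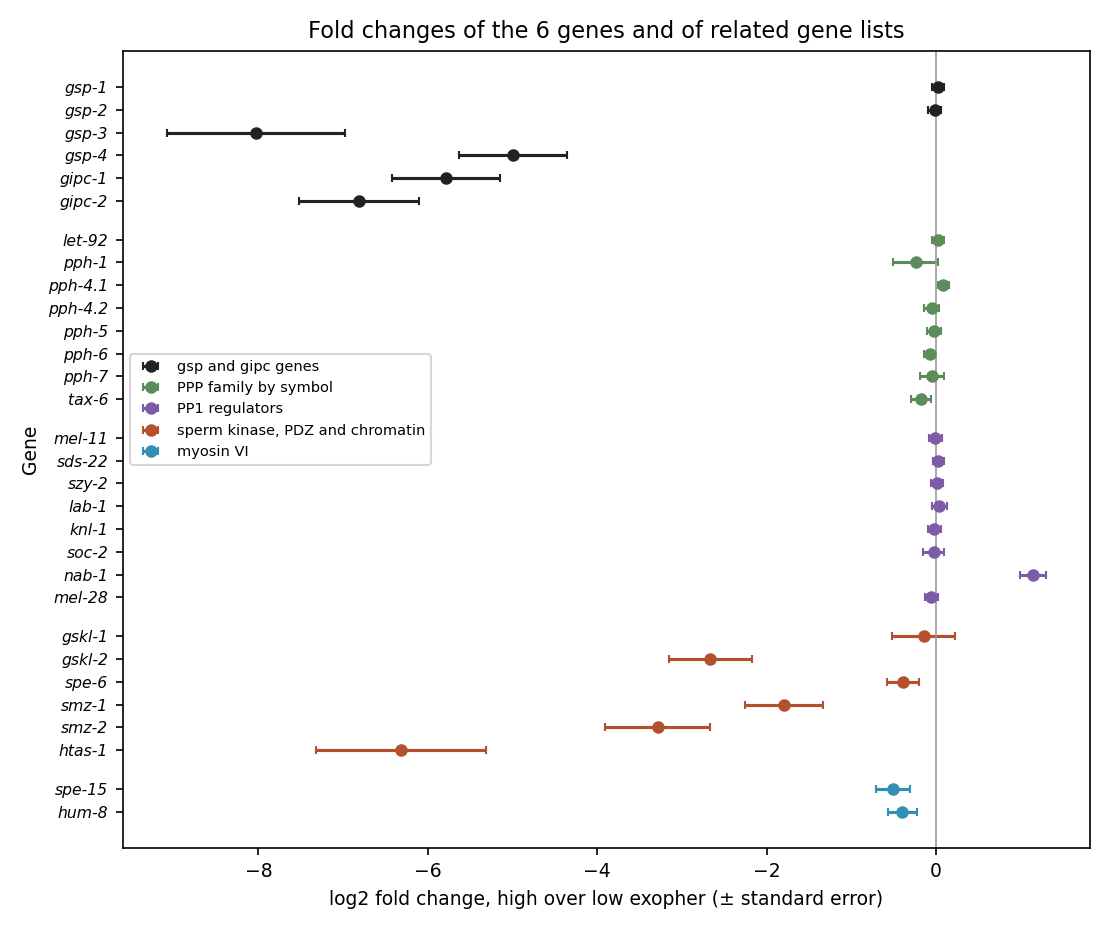
Log2 fold change, high over low exopher, with its standard error from edgeR, for the 6 *gsp* and *gipc* genes and the tested genes of 4 related lists. *gsp-3*, *gsp-4*, *gipc-1* and *gipc-2* lie between -8.03 and -4.99 and *htas-1* at -6.32, while the other phosphatases lie between -0.24 and 0.09 and *nab-1* at 1.15.

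Markers of the cell types in the worms were set beside these values. Of 17 sperm markers, 13 could be tested, and all 13 had a log2 fold change below 0. Called lower were 2, *spe-8* among them, or 4 with the replicate block and 4 by DESeq2. Over all 15883 genes 442 were called lower, or 584 with the block and 548 by DESeq2. *spe-8* passed the filter on low counts only through the low exopher libraries, so its call is given as a description. The median of the 13 markers was -1.25, where that of all genes tested was -0.01. It was nearer to 0 than the values of *gsp-3*, *gsp-4*, *gipc-1* or *gipc-2*. The summed normalized counts of all 17 were between 1666 and 2653 in the low and between 986 and 1391 in the high exopher libraries. Most of this sum came from *spe-41* and *spe-6*, which were not called by edgeR or DESeq2, so it says little about the other markers. *spe-9*, a sperm surface protein needed for fertilization, had 58.2 ± 24.0 normalized counts (SD, n = 3) against 49.2 ± 18.6 (SD, n = 3). The groups overlapped for *spe-9*, as they did for *spe-51*, another sperm gene needed for fertilization. Their log2 fold changes, -0.25 and -0.15, were the nearest to 0 of the 13. In 7 of the 13, *spe-42* among them (-1.58), every high exopher library lay below every low one, as in 9.96% of all genes tested. The ratio of low exopher replicate 1 to replicate 2 had a median of 1.91 over the 13 markers and ranged from 0.966 to 4.17, so that the highest, such as *spe-8*, reached into the range of the 4 genes.

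Of 10 markers of male soma, *cwp-1* was at 0 in all 6 libraries and 3 could be tested. None was called, and none had an unadjusted p below 0.05. Their summed normalized counts were between 151 and 222 in the low and between 166 and 214 in the high exopher libraries. None of the 8 oocyte and none of the 6 germ cell markers was called by edgeR or DESeq2, and none had an unadjusted p below 0.05 in edgeR. Over all genes tested edgeR called 2.78% lower and 2.95% higher. Lists as short as these and the male soma list can hold no call at such shares, so nothing is read from the lack of calls. Summed normalized counts of the oocyte markers ranged from 471566 to 606613 in the low and from 438805 to 591248 in the high exopher libraries. All oocyte and germ cell markers were detected. The summed body wall muscle markers were between 132037 and 157549 in the low and between 98708 and 120885 in the high exopher libraries. None of the 7 passed both thresholds in edgeR or DESeq2. The adjusted p from edgeR was below 0.05 for *tnt-2* (0.0151), *myo-3* (0.0234) and *unc-15* (0.0458). Their log2 fold changes of -0.63, 0.70 and -0.58 missed the fold threshold. By DESeq2 the adjusted p was below 0.05 for these and for *unc-54* (0.0197) and *lev-11* (0.0357). In edgeR 6 of the 7 had an unadjusted p below 0.05, *myo-3* with a higher and 5 with a lower level. Of all 15883 genes tested, 2708 had an unadjusted p below 0.05 in that fit. The part of muscle and sperm levels in the values of the *gsp* and *gipc* genes was not tested.

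The genes whose pattern over the 6 libraries was most like the mean pattern of *gsp-3*, *gsp-4*, *gipc-1* and *gipc-2* were found by the distance between log2(CPM + 1) values centred on each gene's mean. CPM is the count scaled to the same total in every library. The nearest was E03H12.5, with a root mean square distance of 0.037 and a Pearson correlation of 1.00 over the 6 libraries. It was followed by *spch-3* (0.043), T23B3.5 (0.055), F17E9.5 (0.062) and *spch-1* (0.080). *spch-1* and *spch-3* encode basic proteins of sperm chromatin. In normalized counts *spch-3* stood at 587, 126 and 211 in low exopher worms and at 6.50, 5.06 and 3.86 in high exopher worms, with the same order of low exopher replicates as the 4 genes. Of the nearest 30 genes, 7 were *msp* genes of the major sperm protein. All of these share the same libraries and the same difference between the groups, so the likeness is a description.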

How the data were processed

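Poly(A) RNA of whole hermaphrodites was sequenced in 6 libraries, 3 per group. The table deposited by the authors holds raw counts for each gene, from Trimmomatic 0.36, STAR 2.5.2b and featureCounts of Subread 1.5.2 from uniquely mapped reads in exons. The release of the Ensembl genome and the strand setting are not given in the sources used here. A second table, the counts divided by size factors, was not used. Dropping reads that map to several places can lower or split the counts of close copies such as *gsp-3* and *gsp-4*.

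The counts were fitted with edgeR 4.0.16 (R 4.3.3), using filterByExpr, TMM and the robust quasi-likelihood test, without covariates, and Benjamini-Hochberg adjustment over 15883 genes. The standard error is the log2 fold change over the square root of F. Normalized counts use TMM-scaled library sizes. DESeq2 1.42.0 was an alternative, as were other scalings, no filter, a replicate block and each library left out. The method was tested on simulated data. Positions and exon lengths come from Ensembl release 115 (WBcel235), which holds 46581 of the 46756 gene identifiers.

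Libraries of the same number deviated together from their groups, with correlations over genes of r = 0.275, 0.244 and 0.325. The labels name no shared batch, so the replicate number entered as a block in an alternative fit only. The main fit and its p-values leave this pairing out. Replicates differed by more than sampling noise (chi-square per gene 44.6 to 96.8). The labels describe the libraries as separate biological samples, so p-values measure the spread between them.

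The genes and lists were chosen with earlier results of these data known. Named genes are the 6 genes, the called members of the lists, the tested phosphatases with the largest changes (3 in each direction, of which only 2 were above 0) and the 5 nearest by pattern. Other list members are named to describe their list. One called marker gene is not reported here. The phosphatase list by symbol replaced one by protein alignment, since protein sequences were not used here.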

Additional observations from a re-analysis of the deposited data

How the results depend on the processing

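The direction of *gsp-3*, *gsp-4*, *gipc-1* and *gipc-2* was the same in all 11 other fits, which their choice on this difference favours and which is no sign of stability. All 4 were called in 9 of these fits, none without high exopher replicate 1 and *gipc-2* alone without high exopher replicate 3. With single libraries left out the log2 fold changes ranged from -8.44 to -6.94 for *gsp-3*, from -5.36 to -4.24 for *gsp-4*, from -6.14 to -5.03 for *gipc-1* and from -7.18 to -5.99 for *gipc-2*, each nearest to 0 without low exopher replicate 1. Over all genes, 469 were called higher and 442 lower, with the replicate block 682 and 584, and by DESeq2 651 and 548. With single libraries left out these counts ranged from 5 to 465 and from 0 to 663, with the lowest without high exopher replicate 1, and with no filter on low counts 670 were lower. The count of PP1 regulators called higher ranged from 0 to 1, that of the listed sperm kinase, PDZ and chromatin genes called lower from 0 to 4, and that of sperm markers called lower from 0 to 5. Without high exopher replicates 1, 2 and 3 in turn, 9, 6 and 6 sperm markers had an unadjusted p below 0.05 in edgeR, as did 2613, 2906 and 2553 genes in all. With DESeq2, or with the replicate block, 4 sperm markers were lower, in place of 2. The block made *smz-1* a call and ended no call on a gene named here. With no filter on low counts 1 of the phosphatases by symbol, *pph-2*, was lower, in place of 0. This list was added after the data had been seen, as were the alternatives on sperm markers and myosin VI, and the family by protein alignment, with its stricter identity, was not run. Per exon base the mean log2 ratio of *gsp-1* to *gsp-2* in the low exopher libraries moved from -1.12 to -1.27, and that of *gipc-2* to *gipc-1* from 0.12 to 0.38, because the exons differ in length. With a pseudocount of 0.1 in place of 1, 1 of the 5 nearest genes, *spch-3*, remained among the 5. Counts of 0 to 11 in the high exopher libraries limit the size of all large fold changes and the high exopher shares.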
